A study of Vitis vinifera with 60 samples.

Results

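Transcript levels in berries of the red grapevine cultivar Primitivo were compared with those of 4 other red cultivars, Sangiovese, Barbera, Negroamaro and Refosco, at each of 3 stages before harvest. The stages were pea-sized berries, berries beginning to touch in the bunch, and soft berries. Primitivo contributed 9 of the 60 samples, 3 biological replicates at each stage, and the other 4 cultivars contributed 36. The cultivars and stages were taken from the labels, and harvest was left out because the expression values put the labels of 2 harvest columns in doubt. RNA sequencing libraries without strand information were made from the pericarp, taken as whole berries without seeds, of vines that shared an experimental vineyard in the 2011 season. No group carried a treatment or a modified genotype, and the labels state neither clone nor vine number. The deposited table gives 1 value per gene, cultivar and stage, so 3 of its 20 columns are Primitivo before harvest and 12 are the other cultivars at the same stages.

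A grape berry first grows green, firm and acid. At veraison it softens, takes up sugar and, in red cultivars, begins to make anthocyanin pigment in the skin, and the transcripts of the pericarp are replaced on a large scale. The pea-sized and touching stages precede this transition and the soft stage falls in it. Primitivo is the grape grown elsewhere as Zinfandel, and it is known as an early-ripening cultivar.

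Values are FPKM, fragments scaled to transcript length and library size, and each is the authors' mean over 3 replicates. The spread between replicate berries and the read depth behind a value are therefore unknown, and no counting interval can be given. The column totals ran from 787405 to 1096120 FPKM, and between 16103 and 18076 genes reached 1 FPKM. Primitivo had the smallest total of the 5 cultivars in pea-sized berries (787405 FPKM), the second largest in soft berries (1086220 FPKM), and the fewest genes at 1 FPKM in soft berries (16103). Differences are Primitivo minus the mean of the other 4 on the log2(FPKM + 1) scale, which understates changes of weakly expressed genes. They were tested with limma for the 18198 genes that averaged 1 FPKM or more across the 15 columns. Repeats were the 3 stages of each cultivar. A p-value thus sets a difference against how far cultivar differences vary between stages in these vines, pooled over all 5 cultivars. Changes between stages that the cultivars share do not count in it. It says nothing of other vines or seasons. A gene was called when its Benjamini-Hochberg adjusted p was under 0.05 and its difference was at least 1 log2 unit, that is 2-fold. Genes are identified by locus tag because none of the tags matched the reference table of names, so no function is given. For the same reason the absence of seed tissue could not be checked with marker genes. The 2-digit number after VIT_ is called the chromosome field and the next 4-digit number the scaffold field. The sources used here do not give the genome build.

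Primitivo had 208 genes with higher and 282 genes with lower transcript levels than the mean of the other 4 cultivars (limma). These were 1.14% and 1.55% of the genes tested, 2.69% together. The median difference was 1.48 log2 units among the genes called higher and -1.39 among those called lower, against 0.02 over all genes tested. Differences of at least 2 log2 units were found for 47 of the higher and 50 of the lower genes, and of at least 3 log2 units for 14 and 11. The called genes had lower levels than most genes tested. Those called higher had a median level of 12.5 FPKM in Primitivo and 3.71 FPKM in the others, and those called lower had 1.32 FPKM in Primitivo and 8.06 FPKM in the others, whereas all genes tested had a median of 14.4 FPKM. Of the genes called higher, 39 averaged under 1 FPKM in the others and so were tested only because Primitivo was high, and of those called lower, 124 averaged under 1 FPKM in Primitivo and were tested only because the others were high. Without the size condition 1522 genes, 8.36%, passed the adjusted p.

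The number of calls lay within the range of the other cultivars. The same contrast called 528 genes (2.9%) in Negroamaro, 481 (2.64%) in Sangiovese, 426 (2.34%) in Refosco and 346 (1.9%) in Barbera, so Primitivo ranked between Negroamaro and Sangiovese. These contrasts share columns with one another and are not independent. The calls depended on using stages as repeats: with the spread between the other 4 cultivars as the error only 3 genes remained called, namely VIT_11s0065g00650 and VIT_04s0044g02000 as higher and VIT_05s0077g01720 as lower. Each of the 3 reached the 1 FPKM filter only through the group where it was high. The count was 57 without touching berries, 311 without pea-sized berries and 417 without soft berries, where 2 stages are left as repeats, and 154 with a pseudocount of 5.

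**Figure D1:**
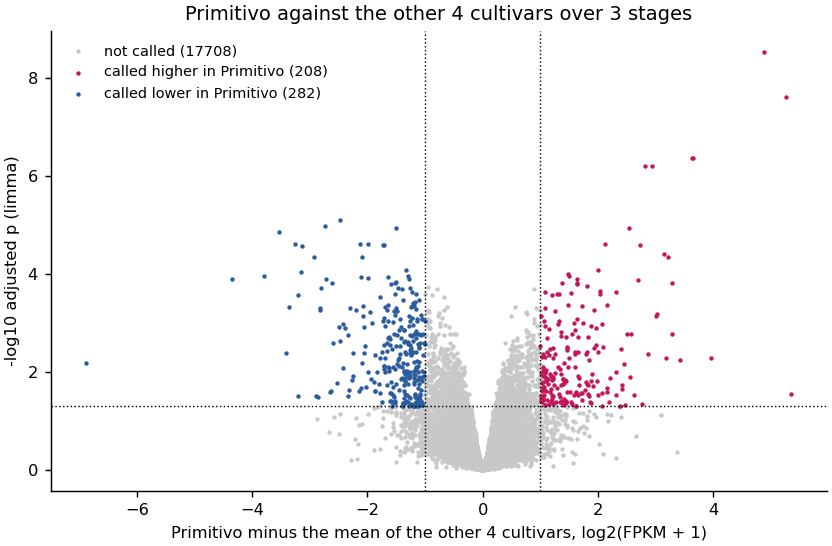
Difference between Primitivo and the mean of the other 4 cultivars on the log2(FPKM + 1) scale (x axis) against -log10 of the limma adjusted p (y axis), 1 point per gene for 18198 genes, with dotted lines at the thresholds. The 208 genes called higher and the 282 called lower lie on both sides, and the gene furthest to the left, VIT_13s0019g02190, has a large standard error and so does not lie near the top.

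A description that rests on no model, and sets no condition on size, asks whether Primitivo lay outside the values of all 4 other cultivars at every stage. It was above all of them at all 3 stages for 879 genes (4.83%) and below for 759 (4.17%), together 1638 genes or 9%. The corresponding counts were 1513 genes for Sangiovese (8.31%), 1410 for Negroamaro (7.75%), 1319 for Refosco (7.25%) and 1197 for Barbera (6.58%). Primitivo thus had the largest number of the 5, without a test of the difference. Which side was the fuller depended on scaling: with columns set to equal total FPKM, 649 genes were above and 856 below. The count rose to 2648 without Barbera, and to 2566, 2562 and 3228 without pea-sized, touching and soft berries, since fewer columns then had to be passed. Of the called genes, 128 of the 208 higher and 175 of the 282 lower were also outside the range at all 3 stages. The remaining 187 overlapped at least 1 other cultivar at 1 stage or more.

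The 2 genes furthest above and the 2 furthest below, among called genes outside the range at all 3 stages with at least 5 FPKM in the higher group, were taken from 111 and 119 eligible genes. VIT_11s0065g00650, chromosome field 11, was at 36.8 FPKM in pea-sized, 47.8 in touching and 54.4 in soft Primitivo berries. In the 12 other columns it lay between 0 and 0.846 FPKM, with a median of 0.209, and it was listed at 0 in all 3 Barbera columns. The groups did not overlap. The difference was 5.27 ± 0.14 log2 units (SE, limma). The gene passed the filter only through Primitivo and so had to differ, and its p-value is not given as support.

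VIT_08s0007g05290, chromosome field 8, was at 74.6, 136 and 167 FPKM in the 3 Primitivo stages. Of the 12 other columns 8 listed it at 0, while pea-sized Sangiovese had 12.6 FPKM, touching Negroamaro 25.4, soft Negroamaro 26.9 and soft Barbera 40.2. Primitivo was higher at each stage, but Sangiovese, Negroamaro and Barbera moved between 0 and 12.6 FPKM or more from stage to stage, while Refosco was listed at 0 throughout. The difference of 5.35 ± 1.25 log2 units (SE, adjusted p = 0.0279, limma) was accordingly the less certain of the pair. It lost its call without Refosco (adjusted p = 0.0863) and without pea-sized, touching or soft berries (0.0664, 0.309 and 0.0762), in a range of 0.00558 to 0.648 over all alternatives.

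VIT_05s0077g01720, chromosome field 5, was nearly silent in Primitivo, at 0.0776, 0.0841 and 0.00589 FPKM. The other 4 cultivars held it at 33.0 to 51.5 FPKM in pea-sized, 30.2 to 34.7 in touching and 4.34 to 7.93 in soft berries. Its level was lowest in soft berries in all of them, and no value came near those of Primitivo. The difference was -4.35 ± 0.36 log2 units (SE, limma). The gene passed the filter only through the other cultivars, so its p-value is not given as support, and the call was lost without touching berries.

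VIT_13s0019g02180, chromosome field 13, was at 7.45, 2.89 and 26.9 FPKM in Primitivo. In the others it lay at 43.5 to 104 FPKM in pea-sized, 73.4 to 218 in touching and 180.3 to 519.8 in soft berries. In each of the other cultivars it was higher at each later stage, while in Primitivo it was lowest in touching berries. The difference was -3.79 ± 0.31 log2 units (SE, adjusted p = 0.000112, limma), in a range of 5.93e-05 to 0.435 over the alternatives. The call was lost with the spread between cultivars as the error (0.435).

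The tag next to it, VIT_13s0019g02190, was singled out after its values were seen because its difference was the largest of all called genes in size. It was listed at 0 in all 3 Primitivo columns and so passed the filter only through the other cultivars. Refosco had 93.3, 499.9 and 1507 FPKM and Barbera 254, 319.6 and 1570.2, whereas Sangiovese and Negroamaro listed it at 0 in pea-sized berries and reached 352 and 642 FPKM in soft ones. Primitivo therefore overlapped a pair of cultivars in pea-sized berries and lay apart from all 4 afterwards. The difference was -6.88 ± 1.18 log2 units (SE, limma). Because of the filter and the choice by size, its p-value is not given as support. The call was lost under 4 of the 18 alternatives run for it, among them those without touching or soft berries. The sources used here do not give how the authors' estimate divides reads between near-identical neighbours, so a 0 beside an expressed neighbour is uncertain.

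**Figure D2:**
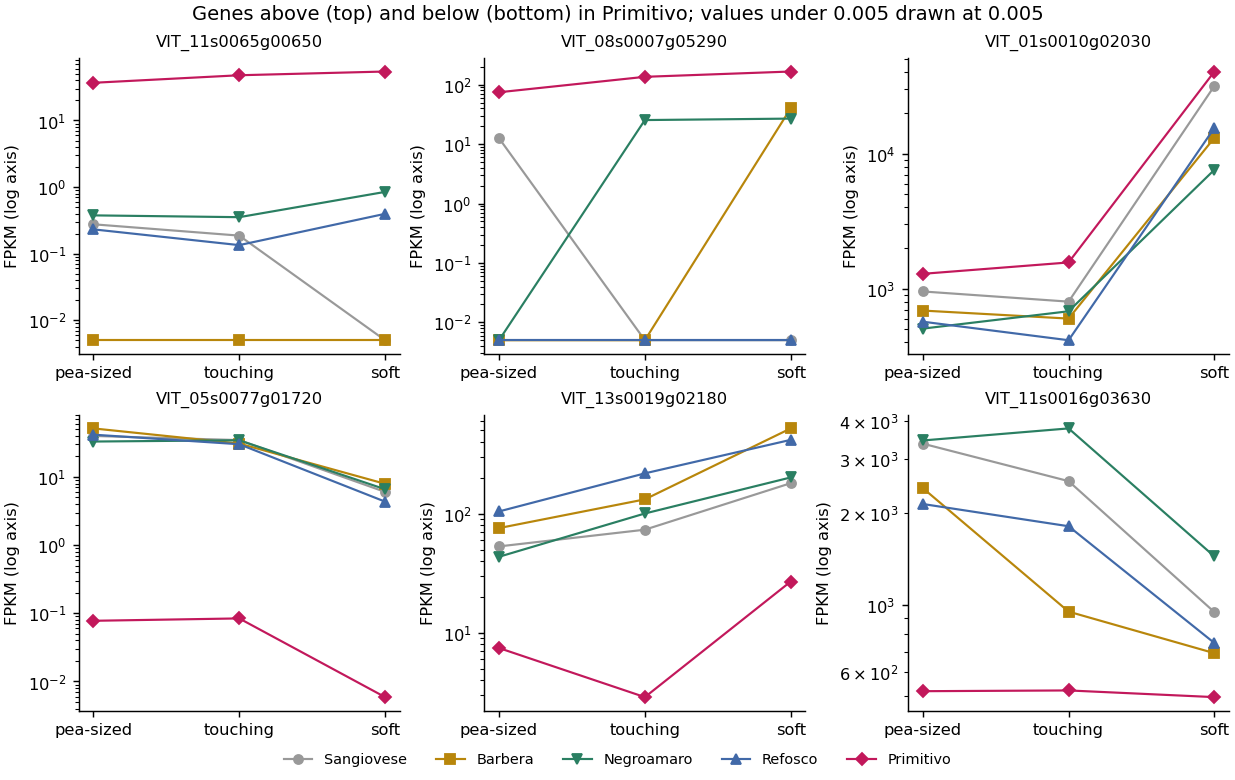
FPKM on a log axis of 6 genes at the 3 stages (x axis), 1 line per cultivar, each point being the authors' mean of 3 replicates, with very low values and zeros drawn at the bottom of the axis. Primitivo is above the other 4 cultivars in each upper panel and below them in each lower panel, and in VIT_08s0007g05290 the other cultivars move between 0 and 40.2 FPKM.

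A group of 5 genes was expressed in Primitivo at 5 FPKM or more at all 3 stages and stayed under 1 FPKM in all 12 other columns. These 5 were drawn from the 18198 genes tested, and no gene showed the reverse at these limits. The balance depended on the limits. With at least 1 FPKM against under 0.5 FPKM, 6 genes were on in Primitivo only and 9 showed the reverse. All 5 genes of the first group passed the filter only through Primitivo, where they were chosen to be high. Their differences are therefore descriptions without a test. Besides VIT_11s0065g00650, the 5 were the following, named after their values were seen because there were so few.

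VIT_04s0044g02000, chromosome field 4, was at 29.2, 30.8 and 26.4 FPKM in Primitivo and at most 0.136 FPKM in the others, with a difference of 4.88 log2 units. VIT_11s0065g01210, which shares its scaffold field with VIT_11s0065g00650, was at 9.82, 9.89 and 15.9 FPKM against at most 0.109. VIT_13s0074g00320, chromosome field 13, was at 8.31, 6.62 and 5.43 FPKM against at most 0.0540. None of these 3 overlapped at any stage, and each was listed at 0 in most of the other columns.

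VIT_07s0005g06200, chromosome field 7, was at 6.77, 7.81 and 5.92 FPKM, and it was the only one of the 5 with a value above 0 in all 12 other columns, from 0.0350 to 0.308 FPKM. No step between stages was called for these 5 genes. This does not show that their steps equal those of the other cultivars, because the step test called only 1 and 4 of the 18198 genes.

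At the other end of the abundance scale, 22 of the 1520 genes with at least 100 FPKM in Primitivo were called higher (1.45%), and 13 of the 1499 genes at that level in the others were called lower (0.867%). Over all genes tested these shares were 1.14% and 1.55%. The abundant genes were picked by the level of the side that is high in a call. That choice favours such calls, so these shares are not directly comparable. The most abundant gene called higher, VIT_01s0010g02030, had 1287 FPKM in pea-sized, 1563 in touching and 40622 in soft Primitivo berries. The others had 505 to 953, 415 to 801 and 7605 to 31795 FPKM. Primitivo was highest at each stage, although soft berries had far more of this transcript than younger ones in all 5 cultivars and Sangiovese came close in soft berries. The difference was 1.26 ± 0.24 log2 units (SE, adjusted p = 0.0104, limma), and the call was lost without pea-sized (0.136) or touching berries (0.149), in a range of 0.00142 to 0.956 over the alternatives.

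The most abundant gene called lower, VIT_11s0016g03630, had almost constant levels in Primitivo, at 520.1, 523 and 497 FPKM. The others had 2134 to 3445 FPKM in pea-sized, 948 to 3774 in touching and 693 to 1436 in soft berries. All 4 had less in soft than in pea-sized berries, nearer to the level that Primitivo held throughout, and none was as low. The difference was -1.75 ± 0.27 log2 units (SE, adjusted p = 0.00386, limma), and again the call was lost without pea-sized (0.0822) or touching berries (0.142), in a range of 0.00113 to 0.798 over the alternatives.

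Summed over genes, the 208 called higher took 2.00%, 2.15% and 5.62% of all FPKM in the 3 Primitivo stages. In the other cultivars they took 0.588% to 1.21% before softening and 1.19% to 4.00% in soft berries. VIT_01s0010g02030 alone took 3.74% of the soft Primitivo column, and without it the share was 1.84%, 1.98% and 1.88%. The 282 called lower took 0.273%, 0.213% and 0.143% in Primitivo and 0.626% to 1.23% in the others. These genes were chosen by the same values, so the sums describe their weight in the RNA and are not tests.

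The called genes were spread over all 20 chromosome fields, in unequal shares. The share of tested genes called ran from 1.04% on field 17 to 5.9% on field 12, where 17 genes were higher and 31 lower. Tags with field 0, which are not placed on a chromosome, had 17 higher and 49 lower (4.7%). The balance of directions varied too. Field 11 had 17 higher and 3 lower of 795 tested (2.52%), field 1 had 13 higher and 2 lower of 1060 (1.42%), and field 13 had 8 higher and 31 lower of 992 (3.93%), with no test of these splits.

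Among scaffold fields with at least 5 calls and 20 genes tested, the one with the largest share lay on field 11. Of 49 genes tested on scaffold field 65 there, 9 were called (18.4%), 8 of them higher, and 7 of these 8 were above all other cultivars at all 3 stages. The 8 genes include VIT_11s0065g00650 and VIT_11s0065g01210. Their summed level was 124, 136 and 131 FPKM in pea-sized, touching and soft Primitivo berries. In the other 4 cultivars it was 6.07 to 16.1 FPKM in pea-sized, 6.61 to 14.2 in touching and 6.11 to 11.2 in soft berries.

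These 8 genes were picked as called higher from the same values, so the place of Primitivo in their sum follows from the choice and is only a description. Their single differences were 1.03 to 5.27 log2 units. The 40 genes of the same scaffold field that were not called summed to 1071, 995 and 869.5 FPKM in Primitivo and to 874 to 1178 FPKM in the others. The single differences of these 40 ran from -1.20 to 0.70 log2 units. Their median was 0.03 log2 units, which the lack of a call also favours. Contrasts for the other cultivars called 1 to 3 of the 49 genes.

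On field 12, calls clustered on scaffold fields 35 (15 of 133 genes, 11.3%) and 34 (11 of 103, 10.7%). These were rich in calls for other cultivars as well: scaffold field 35 held 10 for Sangiovese, 8 each for Negroamaro and Refosco and 7 for Barbera, and scaffold field 34 held 14 for Negroamaro, 10 for Sangiovese, 8 for Refosco and 3 for Barbera. Primitivo had the most calls on scaffold field 35 and Negroamaro on scaffold field 34, without a test of the difference. Scaffold field 89 on field 18 had 6 of 56 (10.7%), with 8 for Barbera.

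Runs of at least 3 neighbouring tested genes called in the same direction numbered 8, with 24 of the 490 called genes in all. Runs were not counted for the other cultivars, so they are not shown to be particular to Primitivo. Of these runs 3 were higher and 5 lower, and 5 of the 8 lay on field 12. Neighbours may be copies of each other that share reads, which the tags do not tell.

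On scaffold field 35 of field 12, a run of 3 genes called lower summed to 36.4, 31.2 and 27.4 FPKM in Primitivo. The other cultivars had 72.6 to 143 FPKM in pea-sized, 49.2 to 98.2 in touching and 88.7 to 168 in soft berries. All 3 genes were below the others at each stage, and from touching to soft berries the sum was higher in the 4 others but not in Primitivo. Another run on this scaffold field summed to 23.7, 9.60 and 4.83 FPKM in Primitivo, against 167 to 761, 24.9 to 130.3 and 8.82 to 56.8 FPKM. Only 1 of its 3 genes was below all other cultivars at each stage.

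On scaffold field 28 of field 12, a lower run was almost without transcripts in Primitivo, with 0.0239, 0 and 0.0555 FPKM summed, against 1.33 to 14.5 FPKM in the others. On scaffold field 34 lay 2 runs of opposite direction. The lower one had 5.24, 10.1 and 3.75 FPKM in Primitivo against 11.3 to 47.9 FPKM, and the higher one had 16.5, 18.4 and 10.7 FPKM against at most 5.65, 12.3 and 8.63 FPKM at the same stages.

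A lower run on scaffold field 9 of field 6 summed to 30.1, 6.58 and 23.7 FPKM in Primitivo. The others had 39.2 to 79.1 FPKM in pea-sized, 13.7 to 27.6 in touching and 40.5 to 128 in soft berries. All 5 cultivars had their lowest value in touching berries, with Primitivo below the rest each time.

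The last pair of runs was higher in Primitivo. On scaffold field 11 of field 1 the sum was 15.2, 15.04 and 103 FPKM in Primitivo and 10.6, 7.47 and 64.4 in Negroamaro, while the other 3 stayed at or under 6.15 FPKM. The sum was highest in Primitivo at each stage, and 2 of the 3 genes were above all others throughout. On scaffold field 63 of field 3 it was 1509, 1432 and 186 FPKM in Primitivo and 716, 1929 and 373 in Barbera. Negroamaro had 583, 674 and 10.8 FPKM. Sangiovese, at 29.1, 3.73 and 0.811 FPKM, and Refosco, at 33.5, 35.3 and 0.343 FPKM, had less of these transcripts. Here Barbera exceeded Primitivo at 2 of 3 stages, and 1 of the 3 genes was above all others throughout.

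A set of 4 abundant genes on scaffold field 15 of field 19 was also higher in Primitivo. Their sum was 519 FPKM in pea-sized, 5329 in touching and 6571 in soft Primitivo berries. The others had 22.4 to 315, 525 to 2799 and 536 to 4809.6 FPKM. The sum was higher in touching than in pea-sized berries in all 5 cultivars, with Primitivo first and Sangiovese or Refosco next. The single differences were 1.80 to 2.38 log2 units, and all 4 genes lay above the other cultivars at every stage. Because the 4 were picked as called, their p-values are not given as support. They were the only genes called among 143 tested on this scaffold field, and they were singled out after their values were seen.

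**Figure D3:**
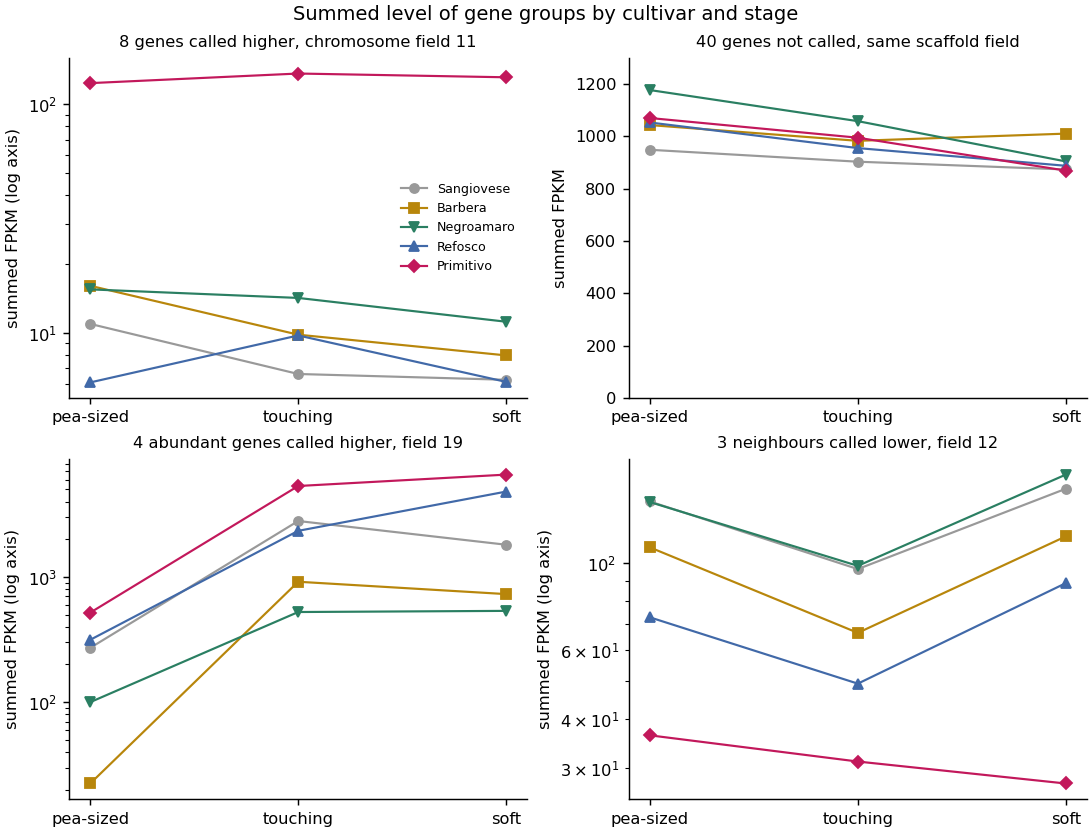
Summed FPKM of 4 groups of genes at the 3 stages, 1 line per cultivar, on log axes except for the genes not called, whose axis starts at 0. The 8 genes called higher on scaffold field 65 of chromosome field 11 sum to 124 to 136 FPKM in Primitivo and to at most 16.1 FPKM elsewhere. The 40 genes beside them, selected as not called, have sums of 869.5 to 1178 FPKM over the 5 cultivars.

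How far the differences were shared by the stages depended on the genes considered. All 282 genes called lower and 207 of the 208 called higher had the same sign at all 3 stages, as calls from a model of one difference over the stages tend to have. A difference of at least 2-fold at each of the 3 stages was found for 110 of the higher and 168 of the lower. Over all 18198 genes the differences in pea-sized and touching berries correlated with Pearson's r = 0.72, those in touching and soft berries with r = 0.50, and those in pea-sized and soft berries with r = 0.45. These are descriptions across genes, which are not independent, and stages share the vines.

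Taken stage by stage, Primitivo was at least 2-fold from the mean of the others and outside their range for more genes in soft berries than earlier. There were 345 genes above (1.9%) and 434 below (2.38%) in pea-sized, 361 (1.98%) and 393 (2.16%) in touching, and 468 (2.57%) and 524 (2.88%) in soft berries. The SD of the difference over genes was 0.515, 0.519 and 0.609 log2 units. Only 81 genes were above and 117 below at all 3 stages. The 81 were 23.5% of the pea-sized, 22.4% of the touching and 17.3% of the soft list, and the 117 were 27%, 29.8% and 22.3% of theirs. At 1 stage or more, 842 genes were above and 917 below. With 1 value per cultivar and stage, the stages could not be tested against each other in these counts.

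**Figure D4:**
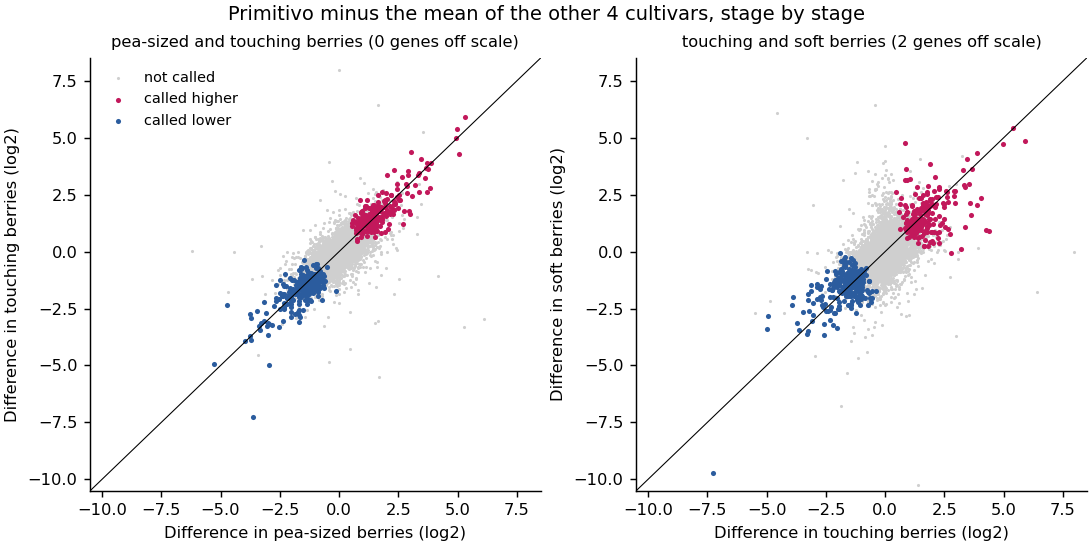
Difference of Primitivo from the mean of the other 4 cultivars in log2 units at one stage (x axis) against the next (y axis), 1 point per gene, with the line of equal differences. The called genes lie along the line in both panels, and the cloud is wider in soft berries, where the SD is 0.609 log2 units, than in touching berries, where it is 0.519.

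Few steps between stages were called as different in Primitivo, although many more differed in size. From pea-sized to touching berries the step was at least 2-fold higher in Primitivo for 192 genes and at least 2-fold lower for 224. From touching to soft berries these numbers were 530 and 564. With 1 value per cultivar and stage and 6 residual degrees of freedom, a step that was not called is not shown to be equal. The step from pea-sized to touching berries differed past the threshold for 1 gene (0.0055% of those tested, with 82 genes, 0.451%, at an unadjusted p under 0.05), and the step from touching to soft berries for 4 (0.022%, with 506, 2.78%, at an unadjusted p under 0.05, limma). Both steps use the touching Primitivo column and so are not independent. The residual comes from the other 4 cultivars, and Primitivo is assumed to vary like them. The 4 calls at softening became 1 without Sangiovese or without Refosco and 2 without Negroamaro, and no call was left at either step with a pseudocount of 0.1 or with genes of at least 5 FPKM. All the genes called are named here, after their values were seen.

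VIT_14s0006g00600, chromosome field 14, was called at both steps because of a single column. It was at 250.4 FPKM in touching Primitivo berries and listed at 0 in the other 14 columns. The step differences were 7.97 and -7.97 log2 units. With no spread among the other cultivars and a single value above 0, the calls rest on the variance that limma borrows from other genes, so no error or p-value is given for them.

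VIT_07s0005g04330, chromosome field 7, was also called higher in Primitivo, at 55.4, 28.6 and 1.54 FPKM against 0.164 to 0.911 FPKM in the others. It was above the others at each stage, with its lowest level in soft berries. The gene passed the filter only through Primitivo. Its step from touching to soft berries differed from that of the others by -3.34 ± 0.31 log2 units (SE, limma). Since the others stayed under 1 FPKM throughout, its p-value is not given as support. The call at this step was lost under 6 of the 13 alternatives run for it.

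VIT_03s0088g00140, chromosome field 3, was at 0.191 and 0.0585 FPKM before softening in Primitivo and at 15.3 FPKM in soft berries. No other cultivar exceeded 0.379 FPKM, and the gene passed the filter only through Primitivo. The step difference was 3.97 log2 units. It rests on the soft Primitivo column alone, so no error or p-value is given for it. The call was lost under 5 of the 12 alternatives run for it.

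VIT_06s0004g02560, chromosome field 6, was at 89.8 and 147 FPKM in pea-sized and touching Primitivo berries and was listed at 0 in soft ones. In soft berries the others ranged from 273 FPKM in Refosco to 15717 FPKM in Sangiovese, all far above their earlier values of at most 85.4 FPKM. The step difference of -16.47 ± 1.56 log2 units (SE, adjusted p = 0.0207, limma) rests on that single 0. Its adjusted p ran from 0.0107 to 0.260 over the alternatives. Among the tested genes, 194 had a 0 at 1 stage beside at least 10 FPKM at another stage of the same cultivar, 6 of them called in the main comparison. Without these rows, a choice made after the data were seen, 488 genes were called, while the steps kept 0 and 2 calls.

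No other cultivar stood out as the nearest to Primitivo. Among the genes called higher, the cultivar whose mean over the stages was closest was Sangiovese for 59, Refosco for 55, Negroamaro for 51 and Barbera for 43. Among those called lower it was Refosco for 87, Barbera for 77, Sangiovese for 62 and Negroamaro for 56. Over all genes tested, the order changed with the stage. In pea-sized berries Refosco was nearest, with 1293 genes at least 2-fold apart from Primitivo (7.11%), followed by Negroamaro with 1335, Sangiovese with 1449 and Barbera with 2111 (11.6%).

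In touching berries the 4 lay close together, from 1530 genes for Sangiovese to 1632 for Negroamaro. In soft berries Barbera, the furthest in pea-sized berries, was nearest with 1908 (10.5%), followed by Sangiovese with 2087, Refosco with 2252 and Negroamaro with 2263. Each is a comparison of a pair of columns without replicate spread, and so the order was not tested.

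Along the course of ripening, Primitivo did not stand apart. On an axis from the mean pea-sized profile of the other cultivars, at 0, to their mean soft profile, at 1, Primitivo lay at 0.032 in pea-sized, 0.285 in touching and 0.962 in soft berries. The other cultivars, each placed on an axis from which its own columns were left out, had -0.0254 to 0.0402 in pea-sized, 0.163 to 0.373 in touching and 0.913 to 1.00 in soft berries. Primitivo lay inside the range of the others at each stage. With 1 cultivar against 4 an exact permutation test cannot go below p = 0.2, so none was made.

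The harvest columns were not used above. Their labels are in doubt: the genes that set Primitivo apart before harvest had the same direction in the harvest column labelled Negroamaro rather than in that labelled Primitivo. Of the 128 genes called higher and above the others at all 3 stages, 82 (64.1%) were highest of the 5 harvest columns in that labelled Negroamaro and 13 (10.2%) in that labelled Primitivo. Over all genes tested those shares were 22.8% and 17.1%. Of the 175 genes called lower and below the others, 121 (69.1%) were lowest in the column labelled Negroamaro and 10 (5.71%) in that labelled Primitivo, against 12.4% and 23.7% of all genes.

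Relative to the mean of Sangiovese, Barbera and Refosco at harvest, the median was 0.97 log2 units for the higher and -0.90 for the lower genes in the column labelled Negroamaro. In the column labelled Primitivo it was -0.00 and 0.12. VIT_11s0065g00650 was at 106 FPKM in the column labelled Negroamaro and at 0.962 FPKM in that labelled Primitivo, and VIT_04s0044g02000 at 13.0 and 5.09e-05 FPKM. VIT_14s0006g00600, seen before harvest in touching Primitivo berries only, was at 387 FPKM in the column labelled Negroamaro and listed at 0 in the other 4.

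Some groups of genes had the same direction at harvest. The 8 genes called higher on scaffold field 65 of field 11 summed to 211 FPKM in the column labelled Negroamaro and to 11.5 FPKM in that labelled Primitivo, against 6.12 to 10.1 FPKM in the other 3. The 4 genes on scaffold field 15 of field 19 summed to 5612 and 348 FPKM, though Refosco was higher still at 10126 FPKM. The run of 3 lower genes on scaffold field 35 of field 12 with 27.4 to 36.4 FPKM in Primitivo before harvest had 18.3 FPKM in the column labelled Negroamaro and 72.4 FPKM in that labelled Primitivo. Others did not follow this pattern. The higher run on scaffold field 63 of field 3 summed to 3.88 FPKM in the column labelled Negroamaro and 1.58 FPKM in that labelled Primitivo, with Barbera highest at 7.11 FPKM. VIT_13s0019g02180, called lower before harvest, was at 60.8 and 57.5 FPKM in these columns, with Sangiovese lowest at 34.3 FPKM.

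With the harvest columns added as labelled, 113 genes were called and 99 of them were among the 490. With the columns labelled Negroamaro and Primitivo exchanged, 495 were called and 395 were shared.

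**Figure D5:**
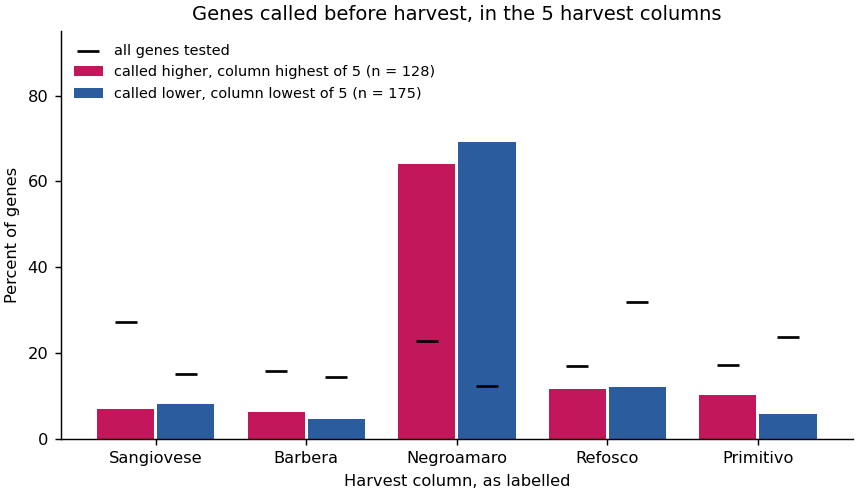
Percent of genes (y axis, from 0) for which each harvest column, as labelled (x axis), was the highest of 5 among the 128 genes called higher or the lowest of 5 among the 175 called lower, with the percent over all genes tested as a short line. The column labelled Negroamaro holds 64.1% and 69.1%, and the column labelled Primitivo holds 10.2% and 5.71%.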

How the data were processed

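Per the file headers and the table's name, the authors deposited mean FPKM values by cultivar and stage for 29287 rows and 20 columns, here taken as genes; 497 of the 18198 rows tested, and 23 of the 490 called, join 2 or more locus tags. TopHat2 2.0.6 and Cufflinks 2.0.2 are listed in the submitters' processing notes, without roles. Per the labels' protocols, RNA came from about 400 mg of tissue and libraries from 2.5 µg of RNA. Replicate numbers do not appear in the columns, so replicate spread and depth are unknown and precision rests on agreement between stages.

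Computed from these values with R 4.3.3 and limma 3.58.1 were log2(FPKM + 1), a fit of stage and cultivar with a mean-variance trend (8 residual degrees of freedom; 6 for steps), contrasts, two-sided p-values and Benjamini-Hochberg adjustment over all 18198 rows. Scripts were tested on simulated data. Figures used Python 3.11.15 and matplotlib 3.10.9. Named genes were the 2 furthest above and below under the rule given; others were named after their values were seen. Members, lists and tests were chosen with earlier results of these data known. Gene lists by function, and seed markers, were not analysed, as no locus tag matched a name. Alternatives were pseudocounts, filters, scalings, robust fitting, cultivars and stages left out, harvest columns added, and another error term.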

Additional observations from a re-analysis of the deposited data

Results flagged for a closer look

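Of 45 sets of 4 or 5 values examined for a value far from the rest, 9 had one. Chance gives about 1 in 20 where values vary evenly, a rate that does not apply to the 8 of the 9 sets in which the other cultivars are mostly at or near 0 and nearly any value above 0 stands out. Touching Negroamaro berries had 17551 genes at 1 FPKM or more, well above the other touching columns at 17264 to 17326. VIT_08s0007g05290 stood out at 12.6 FPKM in pea-sized Sangiovese and at 25.4 FPKM in touching Negroamaro, the other 3 non-Primitivo columns of each stage being listed at 0. The remaining cases are genes expressed in Primitivo, with a small value in 1 other cultivar. They are VIT_11s0065g01210 at 0.0194 FPKM in touching Barbera and 0.0255 in soft Negroamaro, VIT_04s0044g02000 at 0.136 FPKM in soft Refosco, VIT_13s0074g00320 at 0.0540 FPKM in pea-sized Refosco and 0.0377 in touching Sangiovese, and VIT_07s0005g06200 at 0.308 FPKM in touching Refosco.

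A step that differed between Primitivo and the other cultivars (limma) was found for VIT_14s0006g00600, with 7.97 log2 units from pea-sized to touching and -7.97 from touching to soft berries. From touching to soft berries it was also found for VIT_07s0005g04330 at -3.34, VIT_06s0004g02560 at -16.47 and VIT_03s0088g00140 at 3.97 log2 units. The calls of VIT_14s0006g00600 rest on a single Primitivo column, and that of VIT_06s0004g02560 on a single 0. VIT_07s0005g04330 and VIT_03s0088g00140 passed the filter only through Primitivo. These steps are therefore given as descriptions.

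In the unused harvest columns, 82 of the 128 genes above the other cultivars before harvest were highest in the column labelled Negroamaro, and 121 of the 175 genes below were lowest there. Whether the labels of these columns are exchanged cannot be settled from the labels.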

How the results depend on the processing

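No paired analysis was possible because the columns are means without replicate numbers. The 490 calls became 264 with a mean of at least 5 FPKM, 154 with a pseudocount of 5, 113 with the harvest columns as labelled, 3 with the spread between cultivars as the error, and 57 to 629 with a cultivar or stage left out; under the other alternatives run they numbered 458 to 727. The 1638 genes outside the range became 211 with harvest as labelled, 846 with the columns labelled Negroamaro and Primitivo exchanged, where 1 more stage had to be passed, and 2333 to 3228 with a cultivar or stage left out. The single call at the step from pea-sized to touching berries became 0 with a mean of at least 5 FPKM, with a pseudocount of 0.1 and without rows that have an exact 0 (chosen after the data were seen), and 8 with no filter; leaving out a cultivar gave 1 each time. The 4 calls from touching to soft berries became 0 with a mean of at least 5 FPKM and with a pseudocount of 0.1, 24 with no filter, 12 with a pseudocount of 5, 2 without exact-0 rows, and 1 to 6 with a cultivar left out. The median share of genes 2-fold apart from another cultivar, 8.80%, became 4.00% with a pseudocount of 5. The cause of these changes was not tested beyond the smaller number of columns or genes. Positions on the stage axis moved little, and no named gene changed sign under the alternatives run. The median difference of all genes was -0.01 to 0.02 under the scalings tried. Alternatives for gene lists by function were not run, as no tag had a name. Depth limits cannot be given for mean FPKM.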
